A study of Homo sapiens with 9 samples.

Results

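The genes described here are 10 genes of inflammatory signalling: the chemokines CCL2 and CXCL8, the cytokines TNFSF13B, IL6 and IL1B, and 5 genes of the NF-kB pathway itself, TNFAIP3, NFKBIZ, NFKBIA, NFKB1 and RELB. They are 10 of the 25382 entries of a table of reads per gene symbol, found in it by name. CCL2, CXCL8 and TNFSF13B were chosen by their measured changes in these same libraries, so their values are given as a description and no test is attached to them. The other 7 were named for their place in the pathway; 6 of them had enough reads for a test and IL1B did not, so that 9 of the 10 genes are among the 14731 genes fitted.

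NF-kB is a family of dimeric transcription factors that inhibitor proteins hold in the cytoplasm until receptors for TNF, interleukin 1 or microbial products switch on the IkB kinases. Once in the nucleus it drives genes of chemokines and cytokines together with genes of its own inhibitors, so that the response is switched off again by its own products. Melanoma cells are known to secrete CXCL8 and CCL2, which attract neutrophils and monocytes.

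The cells were 501mel, an established human melanoma line, and every library came from this 1 line. Cells were treated with Lipofectamine and a DsiRNA, a short duplex RNA that Dicer cuts into a silencing guide, and were harvested 24 h later. The groups are DsiRNA 13.6 against TBX3, DsiRNA 13.8 against TBX3, and the control DsiRNA NC1, each with 3 libraries that the labels call biological replicates. TBX3 is a T-box transcription factor, and the series asks what it does in pigment cells and melanoma. Libraries held 38105026 to 52272147 counted reads, and over all genes replicates correlated at 0.995 to 0.998 against 0.971 to 0.983 between groups. TBX3 had 46.4, 41.0 and 39.4 CPM (counts scaled by the library's total and its TMM factor) in the 13.6 libraries and 36.1, 33.7 and 36.2 CPM in the 13.8 libraries, against 88.6, 83.8 and 84.0 CPM in control libraries. It was lower in all 6 libraries that received a TBX3 DsiRNA than in any control library (log2 fold change −1.02 ± 0.07 SE with 13.6 and −1.27 ± 0.07 with 13.8). All 8 melanocytic marker genes were expressed, with summed levels of 13840 to 15000 CPM with 13.6, 17380 to 18180 CPM with 13.8 and 13350 to 15370 CPM in control. The markers did not move together. With 13.8, TYR, TYRP1, DCT and S100B were at 1.55 to 3.01 times control. PMEL, MLANA, SOX10 and MITF were at 0.509 to 0.873 of control. These are bulk libraries, in which fewer cells that express a gene and less RNA per cell cannot be told apart.

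The promoters of the genes were searched for 4 fixed motifs, and a site that departs from a motif's letters is not found by such a search. RefSeq gives a window around the start site, 250 bases before it to 50 after, for 8 of the 10 genes on GRCh38.p14, all but CCL2 and RELB. On both strands, the NF-kB consensus was found in at least 1 window of 5 of these 8 genes (TNFAIP3, NFKBIZ, NFKBIA, NFKB1 and IL6), against 11.3% of all 35116 windows and 17.1% of the 10476 tested genes with a window. The AP-1 site TGANTCA was found for CXCL8 alone among the 8, against 7.71% of all windows. The CXCL8 window also holds tggaatttcc, which departs from the NF-kB consensus in its first letter only, so the search did not count it. The interferon response element core (GAAA, 2 bases of any kind, GAAA) was found for TNFSF13B alone, against 3.57% of all windows. The T-box half-site GGTGTGA, the letters a factor such as TBX3 can bind, was found for none of the 8 and in 3.45% of all windows. No match overlapped a match to another of these motifs. For each gene with a match, 1 stretch of 100 bases that holds it is shown 5′ to 3′ on the gene's strand (of the 2 NFKBIZ windows, each with 1 NF-kB match, only 1 is shown), with the matched letters in capitals to set the feedback genes beside CXCL8 and TNFSF13B; a match is a description of the letters and not of a bound site.
TNFAIP3, NF-kB consensus on the reverse strand at 2 places, chr6:137867119-137867218, plus strand: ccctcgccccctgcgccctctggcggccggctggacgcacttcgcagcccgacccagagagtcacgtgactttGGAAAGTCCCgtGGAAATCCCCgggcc
NFKBIZ, NF-kB consensus, chr3:101827740-101827839, plus strand: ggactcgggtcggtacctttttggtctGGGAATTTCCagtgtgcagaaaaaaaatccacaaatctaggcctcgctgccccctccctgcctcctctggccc
NFKBIA, NF-kB consensus on the reverse strand, chr14:35404790-35404889, minus strand: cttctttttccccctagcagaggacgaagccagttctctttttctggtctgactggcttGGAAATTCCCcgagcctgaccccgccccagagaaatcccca
NFKB1, NF-kB consensus, chr4:102501259-102501358, plus strand: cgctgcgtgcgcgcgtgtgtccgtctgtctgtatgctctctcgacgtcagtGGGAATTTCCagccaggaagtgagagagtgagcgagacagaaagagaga
IL6, NF-kB consensus, chr7:22727060-22727159, plus strand: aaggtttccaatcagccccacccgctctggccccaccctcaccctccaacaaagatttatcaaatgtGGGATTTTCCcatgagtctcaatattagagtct
CXCL8, AP-1 site, chr4:73740429-73740528, plus strand: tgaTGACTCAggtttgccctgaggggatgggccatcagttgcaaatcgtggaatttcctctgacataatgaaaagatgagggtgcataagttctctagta
TNFSF13B, interferon response element core, chr13:108269578-108269677, plus strand: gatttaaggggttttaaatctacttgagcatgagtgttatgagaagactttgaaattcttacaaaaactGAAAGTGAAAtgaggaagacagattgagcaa

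CCL2, the chemokine that draws monocytes and memory T cells through the receptor CCR2, was near the limit of counting in control cells and high with DsiRNA 13.8. It had 18, 34 and 54 reads in the 13.6 libraries and 745, 1007 and 838 reads in the 13.8 libraries, against 14, 11 and 14 reads in control libraries. On the CPM scale these are 0.436, 0.733 and 1.19 CPM with 13.6 and 15.6, 19.1 and 17.0 CPM with 13.8, against 0.303, 0.286 and 0.342 CPM in control. The 3 groups did not overlap, with 13.8 far above 13.6 and 13.6 above control. Such separation was common: 56% of all tested genes did not overlap between 13.6 and control. The share was 59.1% between 13.8 and control and 68.8% between the DsiRNAs. Here and below, groups that do not overlap therefore do not by themselves set a gene apart. The log2 fold change was 1.35 ± 0.34 with 13.6 (2.54-fold) and 5.78 ± 0.25 with 13.8 (55.0-fold), the fifth highest of all tested genes with 13.8. The ratio of reads scaled by library totals was 2.50 with 13.6 (exact 95% interval 1.71 to 3.70, counting error only) and 56.0 with 13.8 (40.8 to 78.9). The 13.6 libraries differed among themselves by 2.72 times from the lowest to the highest, against 1.23 times with 13.8.

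CXCL8, interleukin 8, the chief attractant of neutrophils and a growth factor of melanoma cells, lay on opposite sides of control with the 2 DsiRNAs. It had 5.24, 7.07 and 7.85 CPM in the 13.6 libraries and 82.7, 123.3 and 104.7 CPM in the 13.8 libraries, against 21.3, 14.4 and 24.8 CPM in control libraries. All 3 of the 13.6 libraries were below every control library, and all 3 of the 13.8 libraries were above every control library. The log2 fold change was −1.59 ± 0.22 with 13.6 (0.333 of control) and 2.36 ± 0.20 with 13.8 (5.12-fold). Between the 2 DsiRNAs CXCL8 differed by −3.94 ± 0.22 on the log2 scale, 13.6 minus 13.8. Among the 14731 tested genes, 98.7% had a higher log2 fold change than CXCL8 with 13.6, and 1.08% had a higher one with 13.8. The replicate spread of CXCL8 was wide in every group, with a coefficient of variation of 20.0% with 13.6, 19.6% with 13.8 and 26.1% in control.

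TNFSF13B, which encodes the B-cell survival factor BAFF, was high with both DsiRNAs. It had 13.3, 12.0 and 14.2 CPM in the 13.6 libraries and 7.12, 8.75 and 9.12 CPM in the 13.8 libraries, against 1.41, 2.26 and 1.49 CPM in control libraries. No 2 of the 3 groups overlapped, and 13.6 was the highest. The log2 fold change was 2.94 ± 0.17 with 13.6 (7.70-fold) and 2.29 ± 0.17 with 13.8 (4.88-fold), a difference of 0.66 ± 0.14. It ranked 23 from the highest of 14731 genes with 13.6 and 176 with 13.8.

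**Figure D1:**
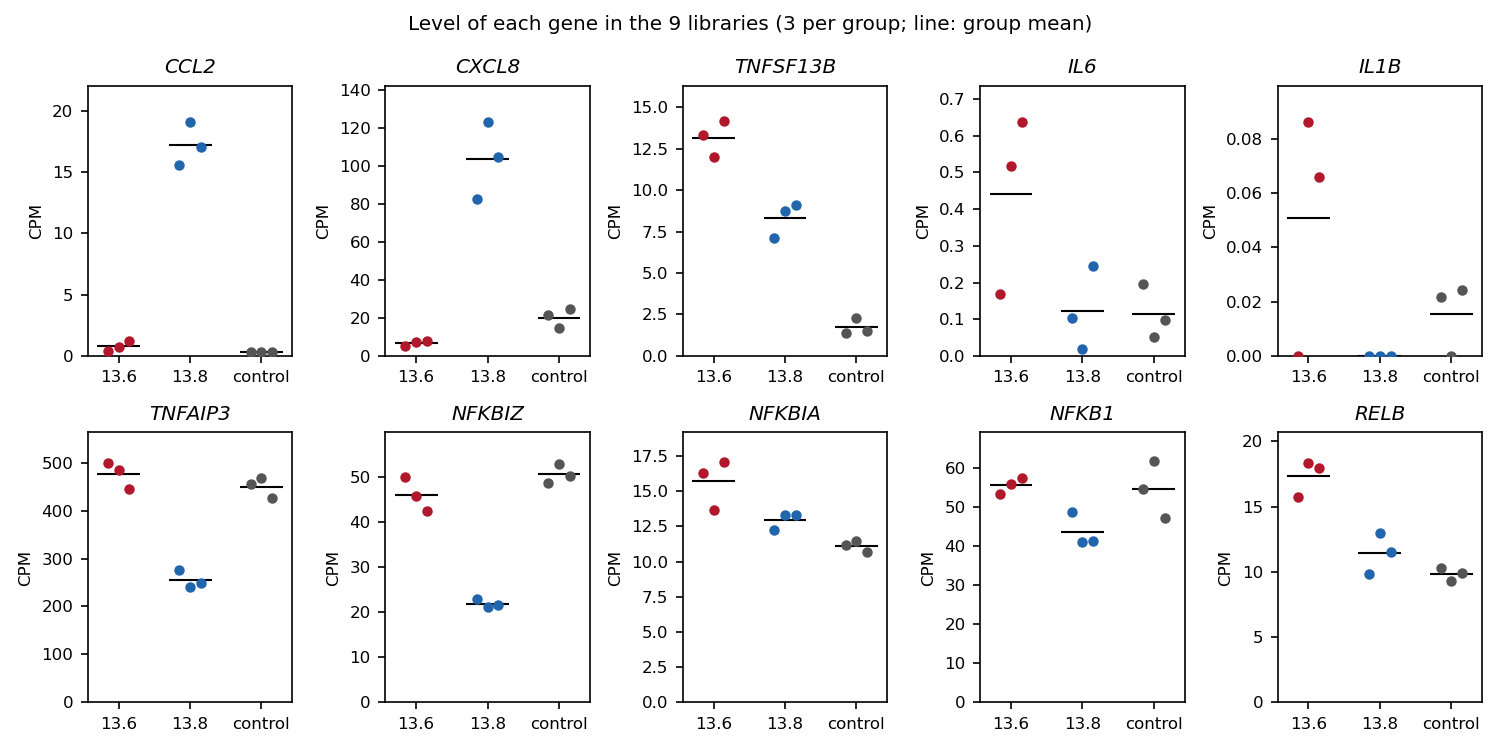
Level of each of the 10 genes in CPM, 1 panel a gene with its own axis from 0, with the 3 libraries of DsiRNA 13.6, DsiRNA 13.8 and control as points and the group mean as a line. CXCL8 stands below control with 13.6 and above it with 13.8, TNFSF13B is above control with both, and TNFAIP3 and NFKBIZ are low with 13.8 alone.

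In the 7 genes that were not chosen for their changes, a gene was called when edgeR's quasi-likelihood test gave a Benjamini-Hochberg adjusted p under 0.05, adjusted over all 14731 tested genes. With 13.6 against control, 3 were called, all higher (IL6, NFKBIA and RELB), and 0 were called lower; of all tested genes 49.9% were called in this comparison, 24.9% higher and 25.0% lower. With 13.8 against control, 3 were called, all lower (TNFAIP3, NFKBIZ and NFKB1), and 0 were called higher; of all tested genes 55.5% were called, 27.5% higher and 27.9% lower. Both comparisons use the same 3 control libraries. In 13.6 against 13.8, all 6 tested genes were called and all were higher with 13.6, where 61.1% of all tested genes were called, 30.9% higher and 30.2% lower. These shares of all genes are large, so a count of 3 genes of 7 does not set these genes apart from the rest.

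TNFAIP3 encodes A20, the ubiquitin-editing enzyme that shuts off NF-kB signalling at the receptor complex, and it was the most abundant of the 10 transcripts. It had 498.6, 485 and 445.6 CPM in the 13.6 libraries and 276.3, 240 and 248 CPM in the 13.8 libraries, against 455.4, 467 and 426.2 CPM in control libraries. The 13.6 libraries overlapped the control libraries and the 13.8 libraries lay below all others. TNFAIP3 fell with 13.8 by 0.82 ± 0.07 on the log2 scale (0.567 of control, edgeR adjusted p = 5.6e-07), while the value with 13.6 was 0.08 ± 0.07 (95% interval −0.07 to 0.24, edgeR adjusted p = 0.349). The difference between the DsiRNAs was 0.90 ± 0.07 (edgeR adjusted p = 1.98e-07).

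NFKBIZ, which encodes the nuclear inhibitor-family protein IkB-zeta, needed for IL6 induction in mouse macrophages, was low with 13.8 as well. It had 50.05, 45.6 and 42.4 CPM in the 13.6 libraries and 22.9, 21.2 and 21.7 CPM in the 13.8 libraries, against 48.6, 52.8 and 50.2 CPM in control libraries. The 13.8 libraries were below all 6 of the others, and 13.6 overlapped control. NFKBIZ fell with 13.8 by 1.21 ± 0.07 on the log2 scale (0.434 of control, edgeR adjusted p = 2.48e-08), the lowest log2 fold change of the 9 tested genes in that comparison, and with 13.6 it was −0.14 ± 0.07 (95% interval −0.29 to 0.02, edgeR adjusted p = 0.141). The difference between the DsiRNAs was 1.07 ± 0.07 (edgeR adjusted p = 6.48e-08).

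NFKBIA encodes IkB-alpha, the inhibitor that NF-kB replaces within its own response. It had 16.3, 13.7 and 17.1 CPM in the 13.6 libraries and 12.3, 13.3 and 13.3 CPM in the 13.8 libraries, against 11.2, 11.4 and 10.7 CPM in control libraries. All 6 libraries with a TBX3 DsiRNA were above all 3 control libraries, and 13.6 was above 13.8. NFKBIA rose with 13.6 by 0.50 ± 0.10 (1.42-fold, edgeR adjusted p = 0.000749) and was 0.23 ± 0.10 with 13.8 (edgeR adjusted p = 0.0611). The 13.8 value did pass the threshold when the test took in only genes averaging 50 reads or more (edgeR adjusted p = 0.0336) or when only the libraries of 13.8 and control were fitted (0.0469). The difference of 0.27 ± 0.09 between the DsiRNAs (edgeR adjusted p = 0.0224) lost its call with library totals in place of TMM (0.0534), without 13.6 replicate 1 (0.0708) or 3 (0.113), and without 13.8 replicate 1 (0.0711).

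Of the subunits, NFKB1 encodes p105, the precursor of p50, and RELB the partner of p52 in the non-canonical branch. NFKB1 had 53.5, 56.0 and 57.6 CPM in the 13.6 libraries and 48.9, 41.1 and 41.4 CPM in the 13.8 libraries, against 54.6, 61.9 and 47.4 CPM in control libraries, and both DsiRNAs overlapped control. It was 0.03 ± 0.10 with 13.6 (edgeR adjusted p = 0.833) and fell with 13.8 by 0.32 ± 0.10 (edgeR adjusted p = 0.0121), a call lost without 13.8 replicate 2 (0.0506) or control replicate 2 (0.0659). RELB had 15.7, 18.3 and 17.96 CPM in the 13.6 libraries and 9.86, 13.0 and 11.5 CPM in the 13.8 libraries, against 10.3, 9.28 and 9.95 CPM in control libraries. All 3 of the 13.6 libraries were above every other library, and 13.8 overlapped control. RELB rose with 13.6 by 0.82 ± 0.11 (1.76-fold, edgeR adjusted p = 3.91e-05) and was 0.22 ± 0.11 with 13.8 (edgeR adjusted p = 0.107), which passed without 13.8 replicate 1 (0.0236). Between the DsiRNAs NFKB1 differed by 0.35 ± 0.10 (edgeR adjusted p = 0.00668) and RELB by 0.60 ± 0.11 (edgeR adjusted p = 0.000305).

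IL6 and IL1B, pyrogenic cytokines that NF-kB induces, had few reads in these cells. IL6 had 7, 24 and 29 reads in the 13.6 libraries and 5, 1 and 12 reads in the 13.8 libraries, against 9, 2 and 4 reads in control libraries; the 3 groups overlapped. Its value with 13.6 was 1.89 ± 0.70 on the log2 scale (edgeR adjusted p = 0.0385) and with 13.8 it was 0.03 ± 0.84 (edgeR adjusted p = 0.98). The ratio of summed reads, scaled by library totals, was 3.67 with 13.6 (exact 95% interval 2.06 to 6.97, counting error only) and 1.01 with 13.8 (0.481 to 2.16). The 13.6 call rests on few libraries: it was lost without 13.6 replicate 2 (edgeR adjusted p = 0.103) or 3 (0.146), without control replicate 2 (0.124) or 3 (0.0773), and with limma-voom (0.0639). The difference of 1.86 ± 0.68 between the DsiRNAs (edgeR adjusted p = 0.0291) was lost without 13.6 replicate 2 (0.0828) or 3 (0.122) and without 13.8 replicate 1 (0.0699) or 2 (0.108). IL1B had 0, 4 and 3 reads with 13.6 and 0 in each library with 13.8, against 1, 0 and 1 reads in control. A count of 0 in the 13.8 libraries allows a level of up to 0.0574 to 0.0636 CPM, taken as 3 reads a library, so no difference in IL1B was detectable at this depth between 13.8 and control.

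**Figure D2:**
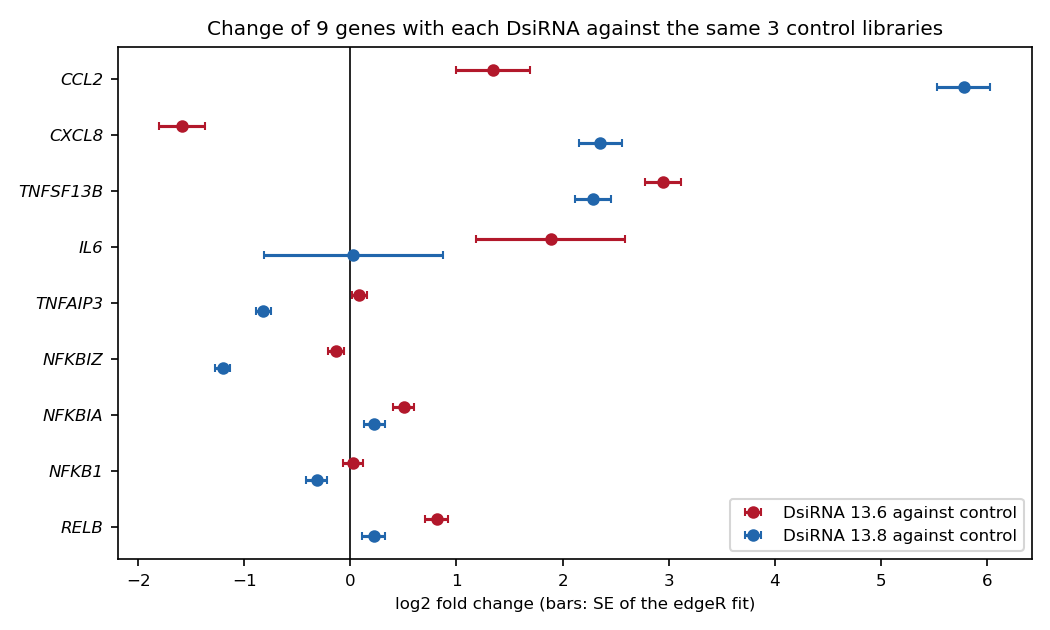
Log2 fold change of the 9 tested genes with DsiRNA 13.6 and with DsiRNA 13.8, each against the same 3 control libraries, with the SE of the edgeR fit as bars and 0 as the vertical line. CXCL8 lies at −1.59 with 13.6 and 2.36 with 13.8, and the 5 NF-kB pathway genes have the higher value with 13.6 in every case, as do TNFSF13B and IL6.

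Between the DsiRNAs, CCL2 and CXCL8, which were chosen by their changes, were lower with 13.6 than with 13.8, by 4.44 and 3.94 on the log2 scale, while TNFAIP3, NFKBIZ, NFKBIA, NFKB1 and RELB were higher with 13.6 by 0.27 to 1.07. TNFSF13B, also chosen by its change, and IL6, with few reads, were higher with 13.6 as well, by 0.66 and 1.86. This comparison uses no control library. The median over all tested genes was −0.01 with 13.6, 0.01 with 13.8 and −0.02 between the DsiRNAs. The median absolute log2 fold change between the DsiRNAs, sign left aside, was 0.394. The differences of NFKBIA (0.275) and NFKB1 (0.347) were smaller than that, and those of CCL2, CXCL8, TNFSF13B, IL6, TNFAIP3, NFKBIZ and RELB were larger.

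Per kilobase of exon, TNFAIP3 was the highest of the 10 genes in every group, with 100.5 ± 5.81 CPM per kb with 13.6, 53.8 ± 4.03 with 13.8 and 94.9 ± 4.44 in control (SD, n = 3). The order below it changed between groups, among the chemokines and among the NF-kB pathway genes. NFKBIZ had 10.98 ± 0.922 CPM per kb with 13.6 and ranked 2, 5.23 ± 0.206 with 13.8 and ranked 6, and 12.1 ± 0.502 in control and ranked 2. CXCL8 had 3.35 ± 0.67 CPM per kb with 13.6 and ranked 7 of 10, 51.7 ± 10.1 with 13.8 and ranked 2, and 10.1 ± 2.63 in control and ranked 3. CCL2 had 0.699 ± 0.337 CPM per kb with 13.6, 15.3 ± 1.58 with 13.8 and 0.276 ± 0.0257 in control, which made it rank 8, 3 and 8. With 13.8 the mean of CXCL8 was within 1 SD of that of TNFAIP3, the only group in which another of the 10 genes came that close to it.

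Neighbours in the order whose means ± SD overlapped were NFKBIZ and NFKB1, NFKBIA and RELB, and CCL2 and IL6 with 13.6. With 13.8 they were TNFAIP3 and CXCL8, NFKB1 and NFKBIA, and NFKBIZ and RELB, and in control NFKBIZ, CXCL8 and NFKB1. IL6 and IL1B ranked 9 and 10 in all 3 groups.

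**Figure D3:**
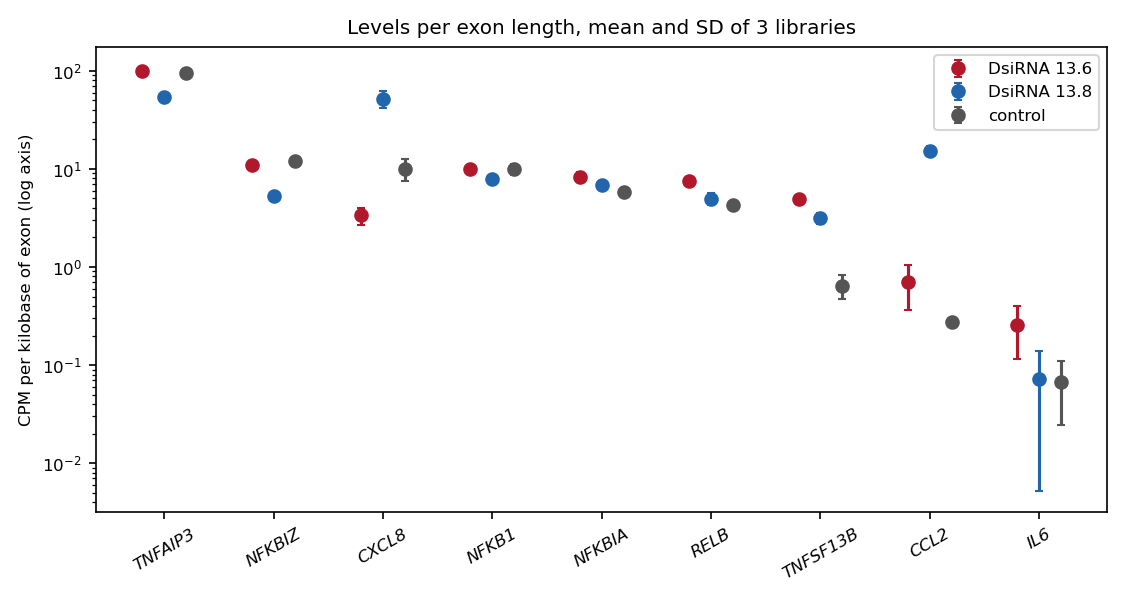
CPM per kilobase of exon on a log axis for 9 of the genes, ordered by their level in control, with mean and SD of 3 libraries for DsiRNA 13.6, DsiRNA 13.8 and control. IL1B, with no reads in any 13.8 library, is left out; CCL2 and CXCL8 stand out with 13.8, at 15.3 and 51.7 CPM per kb.

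The 3′ UTRs of the same 8 genes were read for the AU-rich word TATTTAT, which proteins such as tristetraprolin bind to speed decay of inflammatory mRNAs. CCL2 and RELB, which have no promoter window, were left out here too and not searched, although all 10 genes have a GENCODE 3′ UTR. CXCL8 and IL1B held it 4 times, IL6 3 times, NFKBIA 2 times and TNFAIP3 1 time, and NFKBIZ, NFKB1 and TNFSF13B held none; of 12477 tested genes with a GENCODE 3′ UTR, 35.4% held at least 1. Over all genes the carriers had a median log2 fold change of 0.08 with 13.6 and −0.03 with 13.8, against −0.03 and 0.02 in the other genes. TNFSF13B alone of the 8 held the word GATTAAC, which 5.86% of genes hold; carriers had a median of 0.27 with 13.6 and 0.18 with 13.8, against −0.01 and −0.01 in the others. This word, with GCTCTGT and AACTGTC (none of the 8 held either), came from an earlier search of these same data, so its medians are a description. A site of each kind is shown with 11 bases on either side and the word in capitals for CXCL8 and IL6, which hold the AU-rich word several times, and for TNFSF13B. The CXCL8 and IL6 stretches hold further copies of the AU-rich word, which are left in lower case.
CXCL8, AU-rich word: aacctatttatTATTTATgtatttattta
IL6, AU-rich word: ttttaaagaaaTATTTATattgtatttat
TNFSF13B, word GATTAAC: ctgctaatgtgGATTAACaaataaaaaca

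The rest of the pathway was read from lists of known genes, with the 10 genes left out. Each count is to be read against all tested genes, of which 24.9% rose and 25.0% fell with 13.6, and 27.5% rose and 27.9% fell with 13.8. Of the 3 other NF-kB subunits, NFKB2, RELA and REL, none was called with 13.6 and 1 fell with 13.8, with list medians of −0.01 and −0.07. RELA, the main transactivating subunit p65, had 78.0 ± 1.25 CPM with 13.6 and 73.2 ± 2.53 CPM with 13.8, against 86.5 ± 8.48 CPM in control. It fell with 13.8 by 0.24 ± 0.07 (edgeR adjusted p = 0.0111), a call lost without control replicate 2 (0.0543), and at −0.15 ± 0.07 with 13.6 it passed only without control replicate 3 (0.00551). Of 9 tested inhibitors and feedback genes, 0 rose and 2 fell with 13.6, and 0 rose and 5 fell with 13.8, with medians of −0.18 and −0.35; the 2 with 13.6 are a share near that of all genes. With library totals in place of TMM, 4 fell with 13.6.

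TNIP1, the A20-binding protein ABIN1, had 21.99 ± 1.72 CPM with 13.6 and 42.8 ± 2.57 CPM with 13.8, against 49.9 ± 6.56 CPM in control. It fell with 13.6 by 1.18 ± 0.10 (edgeR adjusted p = 5.29e-07), and at −0.22 ± 0.09 with 13.8 it missed the threshold (edgeR adjusted p = 0.0622), which it passed without 13.8 replicate 1 (0.0415), without control replicate 3 (0.00219) or with no filter beyond 1 read (0.0357). TNIP1 thus differed between the DsiRNAs in the sense opposite to its partner TNFAIP3, by −0.96 ± 0.10 (edgeR adjusted p = 1.98e-06). CYLD, a deubiquitinase of the same pathway, was 0.15 ± 0.07 with 13.6 (edgeR adjusted p = 0.0875) and fell with 13.8 by 0.45 ± 0.07 (edgeR adjusted p = 0.000132), a difference between the DsiRNAs of 0.61 ± 0.07 (edgeR adjusted p = 8.08e-06).

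Among 27 tested kinases and relays that carry the signal to the IkB kinases, 4 rose and 9 fell with 13.6, and 1 rose and 12 fell with 13.8, with medians of −0.02 and −0.16. The rise in 1 gene with 13.8 became 2 without 13.8 replicate 1 or control replicate 3. IRAK1, the kinase below interleukin 1 and Toll-like receptors, had 142.7 ± 5.46 CPM with 13.6 and 116.9 ± 4.36 CPM with 13.8, against 239.7 ± 18.5 CPM in control, and fell by 0.75 ± 0.07 and 1.04 ± 0.07 (edgeR adjusted p = 9.76e-07 and 3.36e-08). SHARPIN, a subunit of the linear ubiquitin ligase, fell by 1.06 ± 0.09 and 0.60 ± 0.09 (edgeR adjusted p = 6.84e-07 and 6.95e-05).

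MALT1, the paracaspase that cleaves A20 in lymphocytes, had 73.0 ± 3.97 CPM with 13.6 and 31.7 ± 0.34 CPM with 13.8, against 51.0 ± 3.15 CPM in control. It rose with 13.6 by 0.52 ± 0.07 (edgeR adjusted p = 2.68e-05) and fell with 13.8 by 0.69 ± 0.07 (edgeR adjusted p = 1.67e-06). TRAF2, the adaptor of TNF receptors, fell with 13.8 by 0.73 ± 0.07 (edgeR adjusted p = 2.38e-06); its value of −0.19 ± 0.07 with 13.6 (edgeR adjusted p = 0.0489) missed the threshold without any 1 of 13.6 replicates 1 and 3 and control replicates 1 and 3 (0.066 to 0.181).

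Of 11 tested upstream receptors, 6 rose and 0 fell with 13.6, with a median of 0.38, where 24.9% of all tested genes rose and 25.0% fell; 1 rose and 1 fell with 13.8, with a median of 0.01, where 27.5% of all rose and 27.9% fell. Without 13.8 replicate 1 or control replicate 1, 2 rose with 13.8, and without control replicate 2, 3 rose. IL1RAP, the shared subunit of the interleukin 1 receptor, had 143.7 ± 7.96 CPM with 13.6 and 85.7 ± 4.75 CPM with 13.8, against 84.95 ± 6 CPM in control. It rose with 13.6 by 0.76 ± 0.07 (edgeR adjusted p = 1.52e-06) and differed between the DsiRNAs by 0.75 ± 0.07 (edgeR adjusted p = 9.84e-07). TLR4, the endotoxin receptor, had 11.7 ± 0.338 CPM with 13.6 and 6.07 ± 0.445 CPM with 13.8, against 6.16 ± 0.0551 CPM in control, a rise of 0.93 ± 0.10 with 13.6 (edgeR adjusted p = 3.84e-06). LTBR, the lymphotoxin beta receptor that feeds RELB, rose with 13.6 by 0.38 ± 0.06 (edgeR adjusted p = 7.77e-05) and was 0.06 ± 0.06 with 13.8 (edgeR adjusted p = 0.399). TLR3, the sensor of double-stranded RNA, rose with both, by 1.26 ± 0.18 with 13.6 and 1.18 ± 0.18 with 13.8 (edgeR adjusted p = 7.77e-05 and 0.000106).

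Of the receptors of the 10 genes' own products, 4 of 14 were tested; with 13.6, 3 rose and 1 fell, and with 13.8, 0 rose and 1 fell. IL6R, the ligand-binding receptor of interleukin 6, had 196.8 ± 7.09 CPM with 13.6 and 85.4 ± 6.41 CPM with 13.8, against 87.7 ± 3.52 CPM in control, a rise of 1.17 ± 0.07 with 13.6 (edgeR adjusted p = 2.23e-08). Its partner IL6ST, gp130, rose by 0.56 ± 0.06 (edgeR adjusted p = 5.27e-06). TNFRSF13C, the BAFF receptor, fell to 0.419 ± 0.094 CPM with 13.6 and 0.508 ± 0.0306 CPM with 13.8, against 1.29 ± 0.0856 CPM in control, by 1.61 ± 0.27 and 1.34 ± 0.26 on the log2 scale (edgeR adjusted p = 0.000301 and 0.000784).

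Other secreted factors were mostly scarce. Of 31 other chemokine ligands, 6 were tested: 2 rose and 0 fell with 13.6, and 3 rose and 0 fell with 13.8, with medians of 0.46 and 0.84. With few reads these counts were unsteady: without any 1 of the 13.6 libraries or without control replicate 2, 1 rose and 1 fell with 13.6; without control replicate 3, 1 rose; and without any 1 of the 13.8 libraries or control replicate 2, 1 fell with 13.8. The counts also depend on the read filter. CXCL9 had 42 reads with 13.6 and 27 with 13.8, against 12 in control. CXCL14 had 8 reads with 13.6 and 134 with 13.8, against 4 in control. CXCL9 met the filter only through 13.6 and CXCL14 only through 13.8, so the filter itself favoured their rises there. With no filter beyond 1 read, 30 ligands were tested, 1 fell with 13.6, and 5 rose and 1 fell with 13.8. CCL27, which the main filter left out, had 6 reads with 13.6 and 10 with 13.8, against 40 in control. CXCL14, a chemokine of epithelia, had 0.0585 ± 0.0833 CPM with 13.6 and 0.897 ± 0.331 CPM with 13.8, against 0.0298 ± 0.0328 CPM in control, and rose with 13.8 by 4.71 ± 0.77 (edgeR adjusted p = 0.000168). CCL18, a chemokine of alternatively activated macrophages, rose with both, by 1.09 ± 0.20 with 13.6 and 0.77 ± 0.20 with 13.8 (edgeR adjusted p = 0.000486 and 0.00486).

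Of 5 other tested cytokines, 1 rose and 0 fell with 13.6, and 3 rose and 0 fell with 13.8, with medians of −0.52 and 0.84. Without 13.6 replicate 2, 1 fell with 13.6, without control replicate 2, 2 fell, and without control replicate 1, 5 rose with 13.8. LIF, a cytokine of the interleukin 6 family, rose with 13.6 by 1.42 ± 0.34 (edgeR adjusted p = 0.00389), to 2.62 ± 0.669 CPM against 0.964 ± 0.419 CPM in control. IL11, of the same family, had 0.46 ± 0.19 CPM with 13.6 and 2.44 ± 0.904 CPM with 13.8, against 0.652 ± 0.29 CPM in control, and rose with 13.8 by 1.88 ± 0.38 (edgeR adjusted p = 0.000912). CSF1, the growth factor of macrophages, rose with 13.8 by 0.84 ± 0.24 (edgeR adjusted p = 0.00863) and was −0.61 ± 0.26 with 13.6 (edgeR adjusted p = 0.0709), a value that passed without 13.6 replicate 2 (0.0283) or control replicate 2 (0.0489). IL32 rose with 13.8 by 2.31 ± 0.69 (edgeR adjusted p = 0.0122), lost without control replicate 2 (0.0502). IL32 had 13 reads with 13.6 and 49 with 13.8, against 8 in control. It met the read filter only through the 13.8 group, so the filter favoured this rise.

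Of 6 other tested ligands of the TNF superfamily, 2 rose and 0 fell with 13.6, and 1 rose and 1 fell with 13.8, with medians of 0.32 and 0.00; without 13.8 replicate 3 or control replicate 2, 2 fell with 13.8. CD70, a costimulatory ligand of T cells, had 0.868 ± 0.119 CPM with 13.6 and 0.152 ± 0.0538 CPM with 13.8, against 0.126 ± 0.024 CPM in control, and rose with 13.6 by 2.75 ± 0.40 (edgeR adjusted p = 7.44e-05). CD70 met the read filter only through the 13.6 group, so the filter favoured this rise. TNFSF4, OX40 ligand, rose with 13.6 by 0.96 ± 0.18 (edgeR adjusted p = 0.000737). EDA, ectodysplasin, rose with 13.8 by 1.58 ± 0.32 (edgeR adjusted p = 0.000926).

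Of 13 other tested NF-kB target genes, 4 rose and 1 fell with 13.6, and 4 rose and 4 fell with 13.8, with medians of 0.16 and 0.01; 2 rose with 13.6 without its replicate 2, and 2 rose with 13.8 without control replicate 3. ICAM1, the leukocyte adhesion molecule, had 171.9 ± 3.74 CPM with 13.6 and 113.9 ± 2.88 CPM with 13.8, against 118.0 ± 5.66 CPM in control, and rose with 13.6 by 0.54 ± 0.06 (edgeR adjusted p = 4.27e-06). TNFAIP8, a regulator of cell death, rose by 1.13 ± 0.11 with 13.6 and 1.15 ± 0.11 with 13.8 (edgeR adjusted p = 3.47e-06 and 2e-06). SOD2, the mitochondrial superoxide dismutase, fell by 0.68 ± 0.08 and 0.55 ± 0.08 (edgeR adjusted p = 7.48e-06 and 3.88e-05), and NUAK2, a kinase related to AMPK, rose with 13.8 by 1.21 ± 0.24 (edgeR adjusted p = 0.000836).

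Of 7 proteins that bind AU-rich words, 2 rose and 3 fell with 13.6, and 1 rose and 2 fell with 13.8, with medians of −0.03 and −0.09; 1 rose with 13.6 without its replicate 2, and 2 rose with 13.8 without control replicate 2. ZFP36, tristetraprolin, had 4.50 ± 0.594 CPM with 13.6 and 6.63 ± 0.392 CPM with 13.8, against 7.23 ± 1.37 CPM in control, and fell with 13.6 by 0.69 ± 0.15 (edgeR adjusted p = 0.00167). KHSRP, which recruits the decay machinery, fell by 0.29 ± 0.06 and 0.50 ± 0.06 (edgeR adjusted p = 0.000724 and 6.17e-06), HNRNPD, AUF1, fell with 13.8 by 0.29 ± 0.05 (edgeR adjusted p = 0.000493), and AUH, a mitochondrial hydratase that binds such RNA, rose by 0.81 ± 0.09 and 1.00 ± 0.09 (edgeR adjusted p = 9.95e-06 and 9.96e-07).

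**Figure D4:**
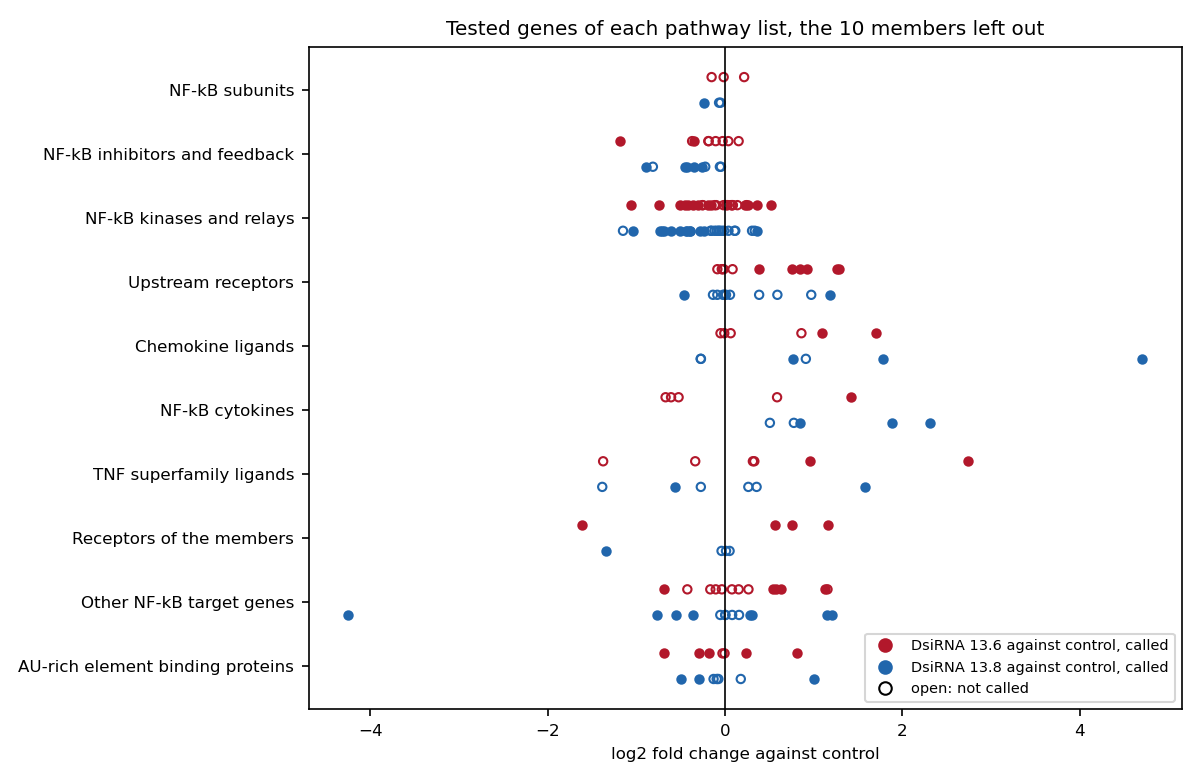
Log2 fold change against control of each tested gene of the 10 pathway lists, with the 10 described genes left out; DsiRNA 13.6 is drawn above DsiRNA 13.8 in each row, filled points are called and open points are not. The called upstream receptors lie right of 0 with 13.6, and the called inhibitors and feedback genes lie left of 0 with 13.8.

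The genes whose pair of log2 fold changes (13.6 and 13.8 against control) lay nearest to each of the chosen 3, among the 11681 genes that averaged 1 CPM or more over all libraries, were found by Euclidean distance over these 2 values, each a mean of 3 against 3 libraries. Nearest to CCL2 (1.35 and 5.78) were IFITM1 (2.07 and 5.73), POSTN (2.72 and 5.78), IFI44 (2.19 and 4.55) and BST2 (1.16 and 4.19). IFITM1, IFI44 and BST2 are interferon-induced genes and POSTN encodes periostin of the extracellular matrix. The mean over all libraries includes the 13.8 group, so it favours genes that are high there. IFITM1 and POSTN reached 1 CPM only through that group. POSTN had 0.487 CPM with 13.6 and 4.08 CPM with 13.8, against 0.0725 CPM in control. IFITM1 averaged 1.29 CPM over all libraries, nearly all of it from the 13.8 group. IFITM1 and POSTN were so scarce in control that 1 library moved them: IFITM1 was 1.43 with 13.6 and 5.09 with 13.8 without control replicate 1, and 4.30 and 7.96 without control replicate 2. POSTN was 3.30 and 6.35 without control replicate 3.

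Nearest to CXCL8 (−1.59 and 2.36) were COL16A1 (−1.71 and 2.33), a collagen, INHBE (−1.64 and 2.12), an activin subunit, LRRN4CL (−1.66 and 2.74) and OLFML2A (−1.92 and 1.97). OLFML2A was −2.43 with 13.6 without 13.6 replicate 2 and 2.36 with 13.8 without control replicate 1. Nearest to TNFSF13B (2.94 and 2.29) were OAS1 (2.88 and 2.41), an interferon-induced oligoadenylate synthetase, GPD1L (2.78 and 2.46), SESN3 (3.03 and 2.92), a sestrin, and TMEM37 (3.31 and 1.74). The distance to the nearest gene was 0.723 for CCL2, 0.125 for CXCL8 and 0.133 for TNFSF13B.

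Markers of other cell types that make chemokines were measured in the same libraries. The 9 fibroblast markers summed to 7.21 to 8.79 CPM with 13.6 and 24.8 to 25.9 CPM with 13.8, against 5.53 to 6.76 CPM in control. Of the 7 tested, 2 rose with 13.6 and 7 rose with 13.8, where 24.9% and 27.5% of all tested genes rose. Some had few reads outside 13.8: DCN had 8 reads with 13.6 and 88 with 13.8, against 20 in control. None of the 9 was at 0 in every library. LUM had 2.77 ± 0.344 CPM with 13.6 and 10.9 ± 1.32 CPM with 13.8, against 3.13 ± 0.495 CPM in control, while COL3A1 had 7 reads with 13.6 and 36 reads with 13.8, against 2 reads in control. The 9 leukocyte markers summed to 100.4 to 106.3 CPM with 13.6 and 77.6 to 83.6 CPM with 13.8, against 73.9 to 79.5 CPM in control, nearly all of it CD68. Of the 4 tested, CD68 rose with 13.6 (1.35-fold, edgeR adjusted p = 4.62e-05), and with 13.8 LYZ rose (1.78-fold, edgeR adjusted p = 0.0178) and ITGAM fell (0.415 of control, edgeR adjusted p = 0.0374). PTPRC, the pan-leukocyte marker, had 0.291 CPM with 13.6 and 0.322 CPM with 13.8, against 0.172 CPM in control, and was called with neither. Endothelial markers summed to 0.528 to 0.873 CPM with 13.6 and 0.961 to 1.30 CPM with 13.8, against 1.01 to 1.60 CPM in control, and the 5 keratinocyte markers to 42.9 to 44.5 CPM with 13.6 and 39.3 to 44.3 CPM with 13.8, against 41.1 to 46.3 CPM in control, nearly all of it KRT10, with KRT5 at 0 reads in every library. The part of these markers in the values of CCL2 and CXCL8 was not tested.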

How the data were processed

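The tools named per the submitters' processing notes are STAR, HTSeq, cutadapt, FastQC and DESeq2, with hg19 as the build; their versions and how strand was treated in counting are not given, although the kit is directional. The table deposited by the authors holds raw read counts per gene symbol; a normalized table was not used. Of 25398 entries, 16 repeats were left out, and 28 entries named as dates hold 0.200% of reads and were kept in the totals. In R 4.3.3, edgeR 4.0.16 tested 14731 genes (filterByExpr, at least 10 reads; TMM; quasi-likelihood fit of all 9 libraries with 1 mean per group, 6 residual degrees of freedom; two-sided). Alternatives used DESeq2 1.42.0, limma-voom (limma 3.58.1), other scalings and filters, a replicate block and each library left out. The spread is that between replicates. The 10 genes and all lists were chosen with earlier results of these data known. Named genes are TBX3, the 10 genes, up to 4 genes per list called in a comparison with control with the smallest adjusted p, and the 4 nearest genes of each chosen gene. Levels are CPM from the counts; exon lengths and 3′ UTRs are from GENCODE 29, promoters from RefSeq (GRCh38.p14). As the counts rest on hg19, no positions are given for them. Intervals of read ratios and the floor of 3 reads cover counting error only. The fit was tested on simulated data.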

Additional observations from a re-analysis of the deposited data

Results flagged for a closer look

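In 6 genes the effect of DsiRNA 13.6 differed from that of DsiRNA 13.8 by the test of the difference itself, edgeR's quasi-likelihood test of 13.6 against 13.8. The difference in log2 fold change, 13.6 minus 13.8, was 1.07 for NFKBIZ, 0.903 for TNFAIP3, 0.597 for RELB, 0.347 for NFKB1 and 0.275 for NFKBIA. It was 1.86 for IL6, which rests on 60 reads with 13.6 and 18 reads with 13.8. All 6 were higher with 13.6, and 61.1% of all tested genes were called in this comparison. The calls of NFKBIZ, TNFAIP3, RELB and NFKB1 held in all 14 alternatives run, with the highest adjusted p of these genes at 0.0304 for NFKB1; those of NFKBIA and IL6 were each lost in 4 alternatives.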

How the results depend on the processing

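Over 14 alternatives per comparison, the number of genes called stayed within 1.5 times of the main value: 6304 to 7470 with 13.6, 7164 to 8450 with 13.8 and 8021 to 8720 between the DsiRNAs when 1 library was left out. Of the 7 genes not chosen for their changes, 2 to 3, 2 to 4 and 4 to 6 were called in those comparisons. A replicate block gave 8010, 8803 and 9581 called genes, against 7357, 8169 and 8995 in the main fit, and changed no call among those 7. TNIP1 with 13.8 was called under the block (edgeR adjusted p = 0.0227). The kinases and relays, upstream receptors and AU-rich element binding proteins called higher with 13.8 were 2 of each under the block, in place of 1. Same-numbered libraries correlated at −0.283 to 0.34 in their deviations, 6 of 9 pairs over 0.1. These correlations do not settle whether same-numbered libraries share a batch. The labels do not say that they do, so the main fit did not pair them. Library totals in place of TMM gave 3244 higher and 4063 lower genes with 13.6. Among the 6 tested genes not chosen for their changes, a call was lost 15 times and gained 3 times, all named above, and no called value changed sign. Values near 0 that were not called did: IL6 with 13.8 ran down to −0.949 and NFKB1 with 13.6 to −0.0642. CCL2 with 13.6 ran from 0.921 to 1.62. IL6 and IL1B are limited by depth, and IL6 was not tested at a mean of at least 50 reads.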
